A study of Homo sapiens with 6 samples.

Results

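The colony-stimulating factors are the secreted proteins that drive the survival, growth and maturation of macrophages and granulocytes. They were examined here together with their receptors in SU-DHL-2 cells, an established line of diffuse large B-cell lymphoma (DLBCL), with and without interleukin-17A (IL-17A), a cytokine of T helper 17 cells. The set held 7 genes, namely CSF1, CSF1R, IL34, CSF2, CSF2RB, CSF3 and CSF3R, of 19740 genes named on the array. Every non-control probe whose RefSeq accession belonged to 1 of these genes was taken, which gave 11 probes on 29 spots, of 34127 probes in all. The set was chosen with the IL-17A comparison known, including a disagreement between the probes of CSF1, so the differences between the groups are given below as values with their spread and without a test.

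The series asked how IL-17A changes gene expression in these cells. SU-DHL-2 cells were cultured for 72 h, as 3 samples with IL-17A at 200 pg/ml and 3 control samples without it, in the same serum-containing medium. The total RNA of each sample was read on 1 single-colour array. The labels name no other cells in these cultures. All 6 samples are of the same line, so the values describe SU-DHL-2 and no other DLBCL cells.

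The factors of the set act through receptors that are partly shared. CSF1 and IL34 are unrelated in sequence but share CSF1R, a receptor tyrosine kinase of monocytes and macrophages. CSF2 is bound by CSF2RA together with CSF2RB, the beta chain that the receptors of IL3 and IL5 also use, and CSF3, the granulocyte factor, is bound by CSF3R. In other cell types, above all fibroblasts and epithelial cells, IL-17A is known as an inducer of CSF2 and CSF3, in part by prolonging the life of their mRNAs.

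Of the 34127 probes, 23945 were detected on at least 3 of the 6 arrays and were tested, where detected means that at least 1 of every 2 spots of the probe was positive, significant and well above background. The arrays detected 23570 to 24077 probes each, correlated at 0.993 to 0.997 across tested probes, and held no saturated spot. A probe was called when its fold change reached 1.5 with an unadjusted limma p under 0.05, and 522 tested probes were, 241 higher (1.01%) and 281 lower (1.17%) with IL-17A. An adjusted p under 0.05, without regard to fold change, was reached by 7.59%. Scaling to the 75th percentile instead gave 150 higher and 422 lower. All 9 B cell markers examined were detected on all 6 arrays, among them CD79A and CD79B. The 3 controls were scanned together with IL-17A replicate 1, and the remaining IL-17A arrays in a separate scan. Nothing in the labels says that the replicates were independent cultures, so p-values measure the spread between these samples, which may be technical.

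The plot of every probe of the set shows which of them were detected in this lymphoma line. Only 6 of the 11 probes, those of CSF1 (2 of 3 probes), IL34, CSF2RB (both probes) and CSF3R, were detected on enough arrays to be tested. CSF1R, CSF2 and CSF3 had no tested probe. In this set, therefore, RNA of ligands for CSF1R was detected while that of CSF1R was not. RNA of receptor chains for CSF2 and CSF3 was detected, while CSF2 was detected on no array and CSF3 on 1 IL-17A array, by 1 of its 2 probes. A probe that was not detected does not show that its RNA was absent.

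**Figure D1:**
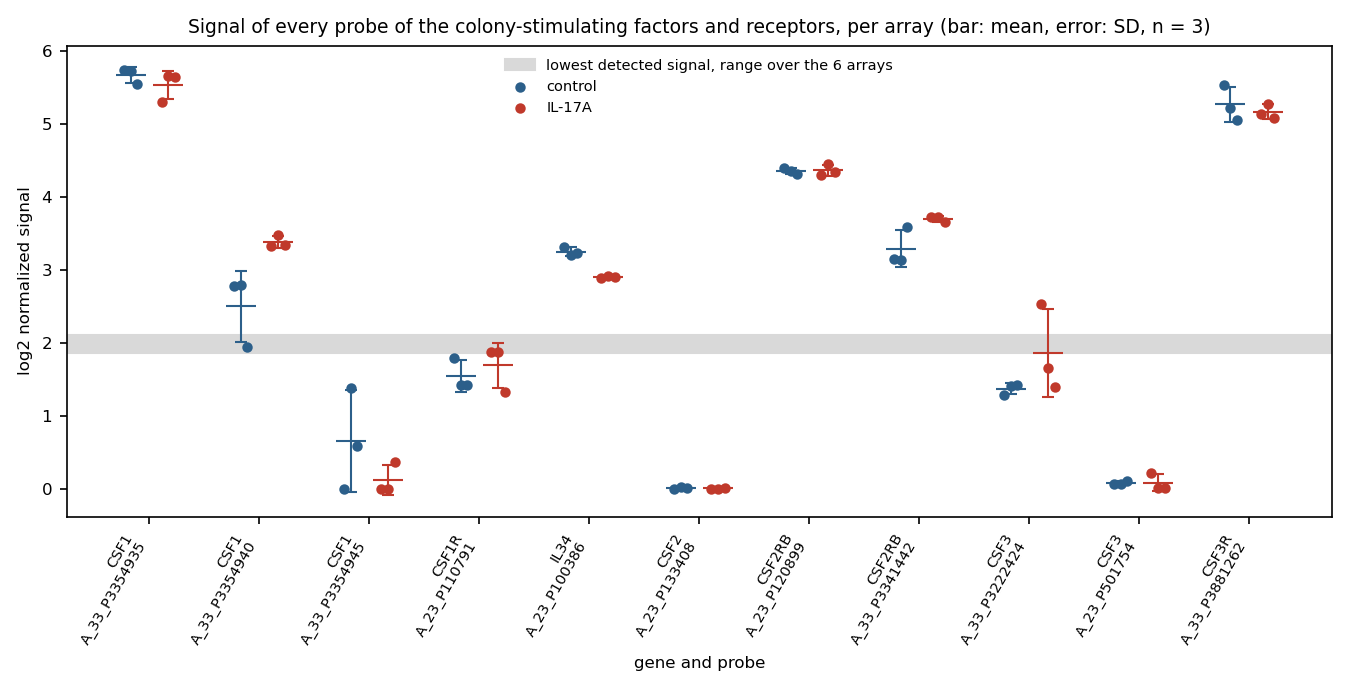
Signal of the 11 probes on each array, on a log2 scale after quantile normalization, with control arrays in blue and IL-17A arrays in red. Horizontal bars are means and error bars SD (n = 3), and the grey band is the range, over the 6 arrays, of the lowest signal that counted as detected; CSF1 probe A_33_P3354940, IL34 and CSF2RB probe A_33_P3341442 have groups that do not overlap, and CSF1R, CSF2 and the third CSF1 probe lie at or under the band.

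Signals below are normalized signals on the linear scale of the scanner, and differences are IL-17A minus control on the log2 scale. The lowest normalized signal that counted as detected was 3.62 to 4.32, depending on the array. Probes differ in how brightly they report an RNA, so the signal of a probe is set only against the same probe on other arrays. A lower signal from fewer cells carrying an RNA and one from less RNA per cell cannot be told apart in bulk RNA.

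CSF1, the macrophage factor, was read by 3 probes, and they did not move together. Probe A_33_P3354940, assigned to NM_000757, gave 10.1, 11.1 and 10.1 in IL-17A replicates 1, 2 and 3, against 6.85, 6.92 and 3.83 in control replicates 1, 2 and 3. All 3 IL-17A arrays lay above all 3 controls, and control replicate 3 lay clearly under the other two controls and was not detected. The mean log2 signal was 3.38 ± 0.08 with IL-17A and 2.50 ± 0.49 in controls (SD, n = 3), a difference of 0.88 with a standard error (SE) of 0.24, or 1.84-fold. This was the 1 probe of the set that was called, where 2.18% of all tested probes were. Since the set was chosen with this comparison known, the call is a description and no test of CSF1.

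The CSF1 probe that was detected on all 6 arrays behaved otherwise. Probe A_33_P3354935, assigned to NM_172212, gave 39.5, 50.2 and 49.8 with IL-17A and 53.5, 52.9 and 46.5 in controls. The groups overlapped, with only IL-17A replicate 1 under every control. Its mean log2 signal was 5.53 ± 0.20 with IL-17A and 5.67 ± 0.11 in controls (SD, n = 3), so the difference of -0.14 (SE 0.11) had the opposite sign and was about the size of its error. The third probe, A_33_P3354945, assigned to NM_172210, ranged from 1.00 to 1.28 with IL-17A and from 1.00 to 2.60 in controls. It was detected on no array and shows nothing about its transcript.

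The 3 accessions name transcript variants of the same gene. The files hold no probe sequences, so whether the called probe reads a transcript that the others miss was not tested. The called CSF1 probe had a mean log2 signal under 4, a range that held 4743 tested probes, and 7.93% of those were called, against 2.18% of all tested probes.

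The comparison of both tested CSF1 probes under other settings shows how each value depends on the processing and on single arrays. The difference of A_33_P3354940 ran from 0.60 without control replicate 3 to 1.03 without control replicate 2. The call held in each of the 6 cases with an array left out. These cases share most arrays, and the set was chosen with this comparison known, so they lend the call no support. Normexp background correction with an offset of 50, which compresses dim signals, brought it to 0.07 and ended the call. The offset lies far above the signal of this probe, so a 1.5-fold difference could hardly remain. That setting therefore cannot decide whether the call is reliable. With slide as a block, in effect IL-17A replicate 1 against the controls of the same scan, the difference was 0.83 and the call was also lost. The probe was left out altogether when detection on all 6 arrays was required. In the log2 table that the authors had normalized, control replicate 3 lay at that table's lowest value, 2.33, so the difference of 0.78 there rests in part on a floor.

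**Figure D2:**
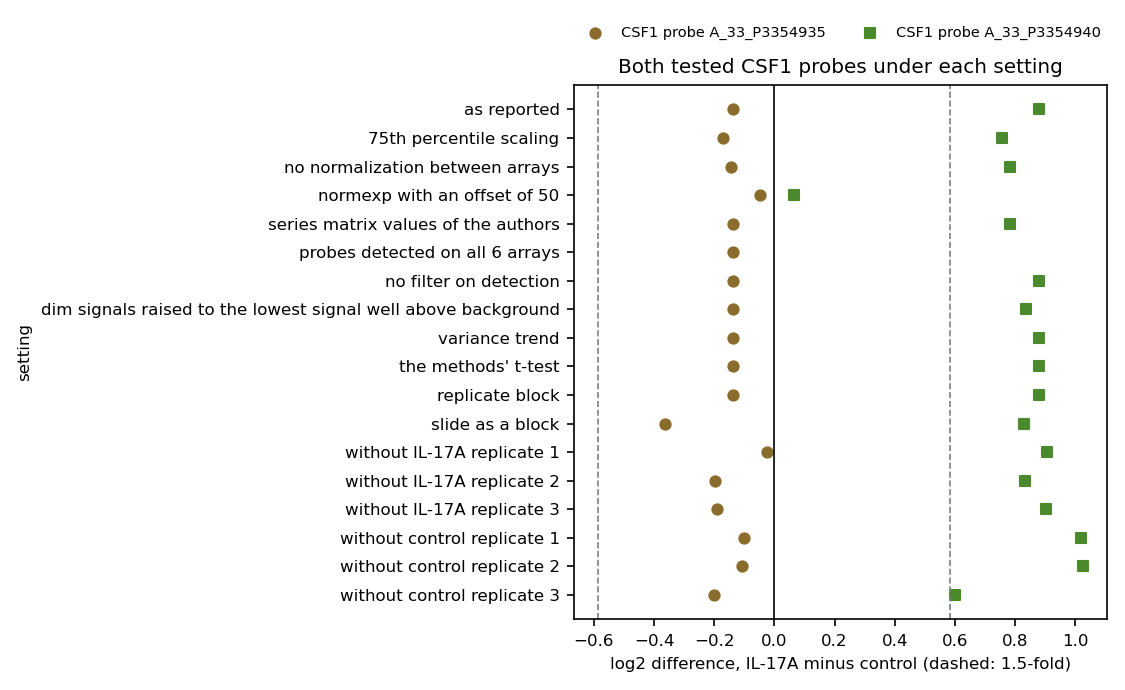
Difference between IL-17A and control arrays (log2, horizontal axis) of the 2 tested CSF1 probes under each processing setting and with each array left out (vertical axis); dashed lines mark a 1.5-fold change. The green probe stays at 0.60 or above except under normexp, where it is 0.07, and the brown probe stays between -0.36 and -0.02.

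For A_33_P3354935 no setting gave a positive difference. It was -0.02 without IL-17A replicate 1, the array that lay lowest, and -0.36 when slide was a block. No setting therefore gave both CSF1 probes the same sign, and under normexp both lay near 0.

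IL34, the other ligand of CSF1R, was lower in every IL-17A array. Its probe, A_23_P100386, is printed on 10 spots of each array, so this dim signal was averaged over more spots than that of any other tested probe of the set. The normalized signal was 7.42, 7.53 and 7.44 with IL-17A and 9.98, 9.18 and 9.35 in controls. The groups did not overlap and each was tight, at mean log2 signals of 2.90 ± 0.01 and 3.25 ± 0.06 (SD, n = 3). The difference of -0.35 (SE 0.04) put controls 1.27-fold over IL-17A, short of the 1.5-fold needed for a call.

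The signal above was averaged from the single spots, so these show how the shift was spread and are no separate evidence of it. All 10 spots were well above background on each control array, and 9, 9 and 8 of the 10 were on the IL-17A arrays. Before normalization, the median over the 10 spots was 7.33, 7.11 and 7.93 with IL-17A and 10.9, 8.84 and 9.26 in controls. Every control median was above every IL-17A median, although single spots of the groups overlapped widely. The difference was -0.37 to -0.31 with an array left out and -0.36 with slide as a block. It was -0.45 with scaling to the 75th percentile, -0.22 in the authors' normalized table and -0.04 under normexp.

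CSF1R, the receptor that CSF1 and IL34 share, was also read on 10 spots, by probe A_23_P110791. Its normalized signal was 3.65, 3.66 and 2.52 with IL-17A and 3.46, 2.68 and 2.67 in controls. It counted as detected on no array, since only 2, 1 and 1 of the 10 spots on the IL-17A arrays and 3, 2 and 0 on the control arrays were well above background. At this signal a difference in CSF1R between the groups was not detectable.

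**Figure D3:**
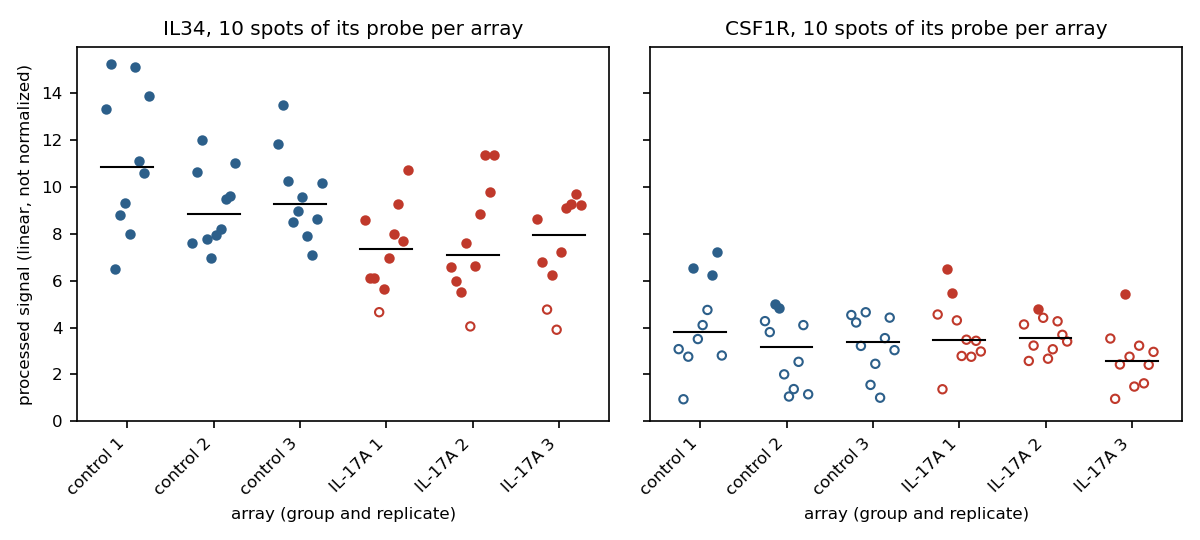
Processed signal (linear scale, before normalization) of each of the 10 spots of the IL34 probe (left) and the CSF1R probe (right) on the 6 arrays, control in blue and IL-17A in red. Filled points are spots well above background, open points are not, and black lines are medians; all 10 IL34 spots are filled on each control array, while at most 3 CSF1R spots are filled on any array.

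CSF2RB, the common beta chain, had 2 probes assigned to the same accession, NM_000395, and these gave unequal differences. Probe A_23_P120899 gave 19.7, 21.8 and 20.2 with IL-17A and 21.0, 20.4 and 20.0 in controls. The groups overlapped fully, and the difference was 0.01 (SE 0.05), from mean log2 signals of 4.36 ± 0.08 and 4.35 ± 0.04 (SD, n = 3). Probe A_33_P3341442 gave 13.1, 13.2 and 12.6 with IL-17A and 8.89, 8.77 and 12.0 in controls.

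The second of these probes was higher in all IL-17A arrays, but control replicate 3 came close to them. Its difference was 0.41 (SE 0.13), from mean log2 signals of 3.70 ± 0.04 and 3.29 ± 0.25 (SD, n = 3). At 1.33-fold it was not called, and among the tested probes of the set that were not called it had the largest difference. Without control replicate 3 the difference was 0.55, and under normexp it was 0.06. As with CSF1, the probe of the gene with a mean log2 signal under 4 had groups that did not overlap, and the other tested probe had groups that did.

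CSF3R, the receptor of the granulocyte factor, was read by probe A_33_P3881262, assigned to NM_156039, and was detected on all 6 arrays. Its normalized signal was 35.2, 38.8 and 33.8 with IL-17A and 46.1, 37.3 and 33.1 in controls. The groups overlapped, with control replicate 1 above all other arrays. The difference was -0.10 (SE 0.13), from mean log2 signals of 5.16 ± 0.10 and 5.27 ± 0.24 (SD, n = 3), and it was 0.03 without control replicate 1.

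The factors that IL-17A is known to induce in other cells were not measurable here. The CSF2 probe, A_23_P133408, lay between 1.00 and 1.01 on all 6 arrays, at the floor of 1 set for the signals, and was detected on none. CSF3 had 2 probes. Probe A_33_P3222424 gave 5.81, 3.14 and 2.63 with IL-17A and 2.44, 2.65 and 2.68 in controls, and counted as detected on IL-17A replicate 1 alone. Probe A_23_P501754 ranged from 1.01 to 1.16 with IL-17A and from 1.04 to 1.08 in controls and was detected on no array. A signal of CSF3 on 1 array, from 1 of 2 probes, gives no difference between the groups.

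Over the 6 tested probes of the set, 3 were higher and 3 lower, and the median difference was -0.05, beside 0.01 over all tested probes. The groups did not overlap at 3 of the 6 probes, where 39.0% of all tested probes had groups that did not overlap. All 3 of those probes had a mean log2 signal under 4, a range in which 22.6% of tested probes had groups that did not overlap. Since the set was chosen with this comparison known, these shares are given only as a description.

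The 5 named genes outside the set whose profile over the 6 arrays lay closest to that of CSF1 probe A_33_P3354940 were ATP13A4, C19orf38, JPH2, ZNF554 and MAP3K13. Closeness was the root mean square distance between log2 signals centred on their own mean, and it was 0.104 for ATP13A4 and 0.141 for MAP3K13. In all 5, control replicate 3 was the lowest array, as it was for CSF1, and their differences ran from 0.75 for MAP3K13 to 1.00 for C19orf38. Both features follow from choosing these genes by closeness to the CSF1 probe, so they are a description only. Like the CSF1 probe, they were dim, and ZNF554 was detected on none of the controls.

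Other genes of these pathways were examined in 7 lists with 77 genes, of which 65 had a tested probe, each gene taken at its brightest tested probe. The plot of these genes shows differences spread around 0, with a median of 0.04. FOS was the only gene called, where 1.92% of all genes were, and 2 genes had an adjusted limma p under 0.05, where 7.85% of all genes did. These were STAT5A, higher with IL-17A, and TYROBP, lower. At an unadjusted p under 0.05, 10 genes were higher and 6 lower, where 16.9% and 14.8% of all genes were (31.8% in either direction).

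**Figure D4:**
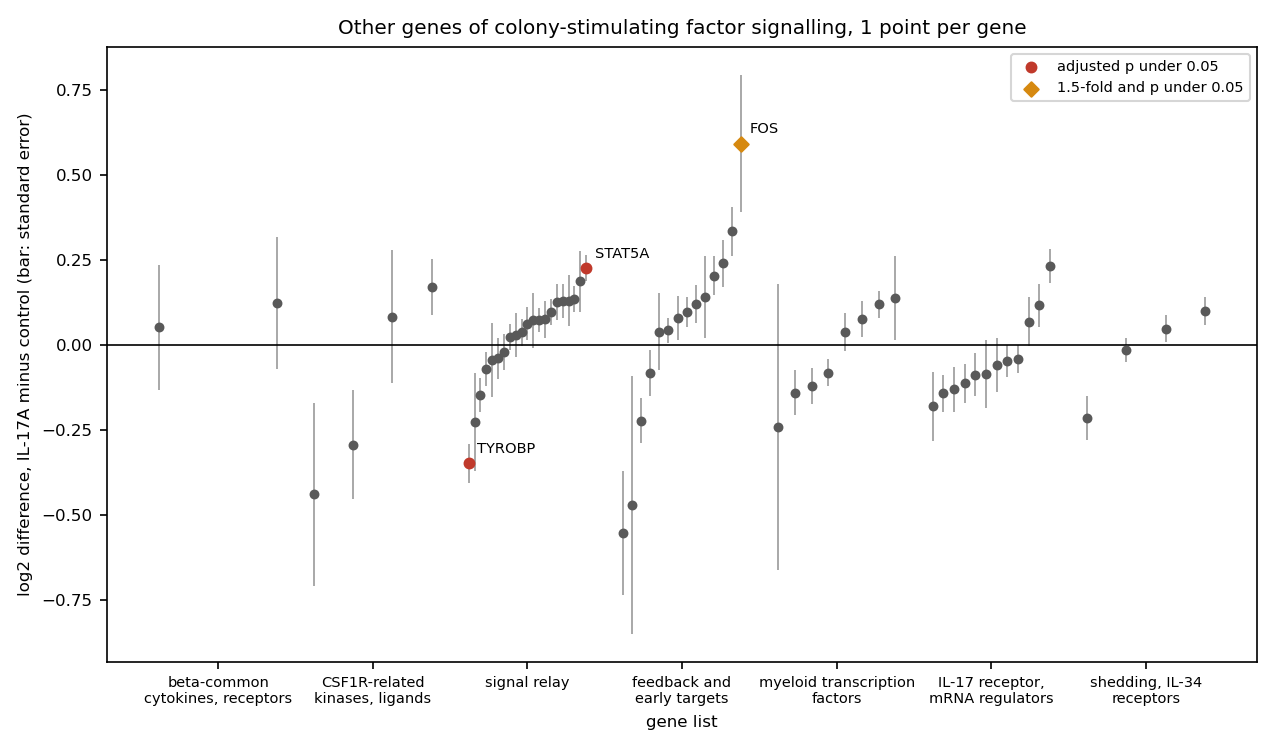
Difference between IL-17A and control arrays (log2, vertical axis) of each of the 65 tested genes, grouped by list (horizontal axis) and sorted within a list; bars are standard errors (n = 3 arrays per group). STAT5A and TYROBP (red) had an adjusted p under 0.05, FOS (orange) reached 1.5-fold with an unadjusted p under 0.05, and the other genes did neither.

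The partners of the set's receptors were mostly not detected, and 2 of 5 were tested. Of the other cytokines and chains of the beta-common receptors, IL3, IL5RA and CSF2RA were detected on no array. The CSF2-binding alpha chain was thus not detected beside the common beta chain. IL3RA, the alpha chain for IL3, was detected on all 6 arrays at a difference of 0.12, and IL5 gave 0.05 at signals close to the limit of detection. Neither passed the test, with adjusted limma p-values of 0.69 and 0.87. IL3, which lies next to CSF2 in the genome, was like CSF2 at the floor of 1.00 on every array.

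Of the receptor tyrosine kinases related to CSF1R and their ligands, 4 of 8 were tested, 2 higher and 2 lower. KIT with its ligand KITLG, FLT3 and PDGFRA were detected on no array, and PDGFRB, the gene next to CSF1R, was detected on 2 arrays of each group. The ligands FLT3LG, PDGFA and PDGFB were detected on all arrays. Their differences of 0.17, -0.29 and -0.44 did not pass, with adjusted limma p-values of 0.21, 0.27 and 0.31.

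Below the receptors, 21 of 22 relay genes were tested, 14 higher and 7 lower. STAT5A, a transcription factor that the receptors of CSF2 and CSF3 activate, gave 145, 143 and 140 with IL-17A and 124, 122 and 119 in controls. The groups did not overlap, and the difference was 0.23 (SE 0.04), with an adjusted limma p of 0.036. It kept its direction and an unadjusted p under 0.05 in every alternative run. TYROBP, an adaptor of myeloid receptors that takes part in CSF1R signalling, gave 19.8, 21.7 and 21.6 with IL-17A and 26.2, 26.0 and 28.1 in controls, and the difference was -0.35 (SE 0.06), with an adjusted limma p of 0.036.

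All 14 feedback and early target genes were tested, 10 higher and 4 lower. FOS, an immediate early gene, gave 7.96, 6.08 and 8.04 with IL-17A and 4.86, 6.12 and 3.81 in controls. The groups overlapped through IL-17A replicate 2 and control replicate 2, and FOS was detected on only 1 control array. Its difference of 0.59 (SE 0.20) had an adjusted limma p of 0.12. The call was lost in most alternatives, among them scaling to the 75th percentile, the authors' log2 values, the methods' t-test, both blocks and 4 of the 6 cases with an array left out. OSM, a cytokine induced through STAT5, differed by 0.33 and BCL2L1, which codes for the anti-apoptotic BCL-XL, by 0.21, with adjusted limma p-values of 0.052 and 0.081. The signalling inhibitors SOCS2 and SOCS1, named after their values were seen, went the other way without overlap, at differences of -0.55 and -0.22 and adjusted limma p-values of 0.11 and 0.090.

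The transcription factors that drive CSF receptor genes in myeloid cells were largely detected, with 8 of 10 tested, 4 higher and 4 lower. CEBPA, a main activator of CSF3R, was detected on no array, while SPI1 (PU.1), which B cells also use, was detected on all 6. GFI1, a repressor of myeloid genes, differed by 0.12 and SPI1 by -0.12, with adjusted limma p-values of 0.11 and 0.18.

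The IL-17A receptor chains and the regulators of CSF2 and CSF3 mRNA were all tested, 3 higher and 9 lower, with a median of -0.07. IL17RA and IL17RC, the chains that bind IL-17A, were detected on all 6 arrays, at differences of -0.05 and -0.08. NFKBIZ, an IL-17A target in other cells, differed by 0.23 (SE 0.05) with no overlap, at an adjusted limma p of 0.052. KHSRP, which destabilises cytokine mRNAs, differed by -0.14 and ELAVL1, which stabilises them, by -0.11, with adjusted limma p-values of 0.15 and 0.24.

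ADAM17, a protease that sheds CSF1R from the cell surface, and the related ADAM10 were detected on all arrays, in a list with 4 of 6 genes tested, 2 higher and 2 lower. ADAM10 differed by 0.10 and ADAM17 by 0.05, with adjusted limma p-values of 0.17 and 0.45. SDC1, one of the further receptors described for IL-34, differed by -0.21 with an adjusted limma p of 0.092, and PTPRZ1, the other, was detected on no array.

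Markers of other cell types were examined beside these results. Of 11 monocyte and macrophage markers, 9 had a named probe, and CD163, MRC1, S100A8 and S100A9 were detected on no array, while CD14, ITGAM, CD33 and VCAN were detected on all 6. The summed signal of these markers was 151 to 164 with IL-17A and 171 to 217 in controls, lower with IL-17A as IL34 and TYROBP were. Of the 4 markers detected on all arrays, ITGAM alone had groups that did not overlap, and the highest sum came from control replicate 3, where ITGAM gave 102 against 57.8 to 70.2 on the other arrays. CD14, CD33 and VCAN overlapped between the groups. The 4 endothelial markers, all detected on every array, summed to 260 to 270 with IL-17A and to 287 to 331 in controls. The ranges of the other non-B-cell lists overlapped. Granulocyte markers summed to 197 to 215 with IL-17A and to 184 to 206 in controls, T and NK cell markers to 199 to 223 and to 210 to 221, and mesenchymal markers, of which only COL1A1 was detected on all arrays, to 19.4 to 24.5 and to 17.5 to 25.4. Each sum is weighted to the brightest probe of its list. Of the granulocyte sum, CAMP alone gave 174 to 185 with IL-17A and 156 to 181 in controls, and 4 of the 7 granulocyte markers were detected on no array. Within the T and NK cell list the genes did not move together. CD3E differed by -0.46, CD8A by -0.51 and CD2 by 0.51, with adjusted limma p-values of 0.040, 0.068 and 0.054, all without overlap and named after their values were seen. The 9 B cell markers summed to 74540 to 76067 with IL-17A and to 69165 to 72501 in controls. The part of these markers in the results for IL34 and TYROBP was not tested. GAPDH, a reference gene, had a mean log2 signal of 14.62 in both groups.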

How the data were processed

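RNA of 3 SU-DHL-2 samples with IL-17A and 3 controls, grouped by title, was labeled with Cy3 and hybridized to whole human genome arrays. The authors deposited, per array, a linear intensity for each spot, background-subtracted by Agilent Feature Extraction 11.0.1.1 per the submitters' processing notes and not normalized between arrays, with spot flags, and a table of quantile-normalized log2 values. Here, control and non-uniform spots (61) were left out, intensities under 1 were set to 1, spots were averaged per probe as log2, and arrays were quantile normalized. Groups were compared with limma 3.58.1 (R 4.3.3) without covariates, with Benjamini-Hochberg adjustment over 23945 probes. An exact permutation test of 3 arrays against 3 cannot give a p below 0.1. The number of arrays limits precision.

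Probes were named by RefSeq accession (GRCh38.p14 names). The members, the gene lists and the tests were chosen with earlier results of these data known. Named were every member probe, up to 3 genes per list (called genes, then those with the lowest p), B cell markers, the 5 probes most like CSF1, and GAPDH. Some genes that this rule names are not reported here. Other genes, among them list genes that were not detected, IL17RA, IL17RC and PDGFRB, were named after their values were seen. Alternatives were 75th percentile or no scaling, normexp, the authors' log2 values, other detection filters, dim signals raised to a floor, a trended variance, the methods' t-test, blocks for replicate number or for slide, stricter thresholds, and each array left out. The procedure was tested on simulated data.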

Additional observations from a re-analysis of the deposited data

How the results depend on the processing

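Of 101 values of the tested probes of the set under the alternatives, 94 moved by less than the spread between replicates and 7 by more. Many of the 94 could not move. The detection filters, the trended variance, the t-test and the replicate block leave a probe's difference as it was, so the tally overstates stability. Most of the 7 were of IL34, whose replicates were tight. Its difference was -0.45 with 75th percentile scaling, -0.42 without normalization, -0.22 in the authors' log2 values and -0.04 under normexp. The differences of CSF1 probe A_33_P3354940, IL34 and CSF2RB probe A_33_P3341442 kept their sign throughout, though not their size. That of CSF2RB probe A_23_P120899 ran from -0.053 to 0.039 and crossed 0. The call of CSF1 probe A_33_P3354940 was lost, leaving 0 called probes of the set, under normexp, with detection on all 6 arrays, with slide as a block, at a fold change of 2 and with an adjusted p. Over all tested probes the count was 15 under normexp, 299 with detection on all 6 arrays, 978 without the filter, 82 at a fold change of 2 and 197 with an adjusted p. Among the other pathway genes, the count was 1, that of FOS, and fell to 0 with 75th percentile scaling, no normalization, normexp, the authors' log2 values, detection on all 6 arrays, raised dim signals, the methods' t-test, a fold change of 2 and an adjusted p. The offset of normexp lies far above the signals of this CSF1 probe and of FOS, so that setting could hardly keep either call. With slide as a block the count of other pathway genes was 1, but the gene was SOCS2. With 1 array left out it ranged from 0 to 2, and FOS stayed called only without IL-17A replicate 2, together with SOCS2, and without control replicate 2. SOCS2 was called with PDGFB without IL-17A replicate 3 and by itself without control replicate 3. In these 6 cases the set kept 1 called probe, and all tested probes gave 409 to 658. The same-numbered arrays did not deviate together (r = -0.087, -0.002 and -0.047). These values cannot exclude paired samples, since the deviations within a group sum to 0 and the IL-17A arrays were split over 2 scans. The replicate block gave 1 called probe of the set, 527 of all tested probes and 0 other pathway genes. IL3RA reversed to -0.086 without control replicate 3 and ranged up to 0.25 with other arrays left out. IL5 reversed to -0.073 with 75th percentile scaling, -0.05 without normalization, -0.13 with slide as a block, -0.14 without IL-17A replicate 3 and -0.04 without control replicate 2, and was 0.15 without IL-17A replicate 2. The cause was not tested. Signal over background limits CSF1R, CSF2, CSF3 and the third CSF1 probe, for which no difference was measurable.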
